A study of Ciona robusta with 6 samples.

Results

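The genes described here are 5 gene models of the sea squirt *Ciona robusta* that belong to pigment cell formation, out of 16526 gene models counted. They are 3 genes for melanin enzymes and 2 genes for transcription factors grouped with them as regulators. The enzyme genes are *Tyr* (KH2012:KH.C12.469), *Tyrp-1* (KH2012:KH.C5.485) and a further tyrosinase-related gene called KH.C8.537 here (KH2012:KH.C8.537), and the regulator genes are *Mitf* (KH2012:KH.C10.106) and *Msx* (KH2012:KH.C2.957). The members were taken by model number. The study pairs KH.C5.485 with *TYRP1* and KH.C2.957 with *MSX2*, and it lists KH.C10.106 and KH.C2.957 among annotated transcription factors. The names *Tyr* and *Mitf* and the kind of gene that KH.C8.537 is came with the list of members, and no name was taken from the count files.

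The larva of *Ciona* has pigmented sensory organs in its brain vesicle, the otolith, which senses gravity, and the ocellus, which senses light. Their melanocytes arise from the lateral part of the anterior neural plate (ANP), and FGF signaling is needed for their fate. Melanin synthesis starts with tyrosinase, the product of *Tyr*, which oxidizes tyrosine. Tyrosinase-related proteins act on later intermediates in vertebrates. MITF is the bHLH factor that activates genes of this pathway in vertebrate melanocytes, and Msx factors are homeobox proteins of the neural plate border.

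The libraries measured polyA RNA of ANP lineage cells sorted on GFP from embryos raised at 18°C. In the *Lhx3/4* group, wild-type embryos carried *Dmrt>GFP* and *Dmrt>Lhx3/4*, so that the LIM homeobox factor *Lhx3/4* was misexpressed under the *Dmrt* enhancer of the ANP lineage (3 libraries). In the control group, wild-type embryos carried *Dmrt>GFP* alone (3 libraries). The sort read GFP and not the other transgene, so a sorted cell need not carry *Dmrt>Lhx3/4*, and which embryos were pooled for a library is not stated. The comparison asks how pigment genes of the ANP respond to a factor that is foreign to this lineage, and whether enzymes and regulators fell together or to different degrees.

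Reads assigned to genes numbered 52637768 to 71200276 in the *Lhx3/4* libraries and 58295081 to 68937810 in the controls. Unaligned reads made up 12.1% to 15.1% of all counts in the *Lhx3/4* libraries and 15.5% to 19.5% in the controls, and the part of this difference in the results was not tested. The misexpressed gene matched the labels, with 540 to 644 CPM (reads of a gene per 1000000 reads in genes, with library sizes adjusted by TMM factors) of *Lhx3/4* in the *Lhx3/4* libraries and 30.1 to 53.1 CPM in the controls. Transgene and endogenous reads of it were not told apart. The brain regulators *Six3/6* and *Onecut*, which mark ANP cells, were present in every control library at 378 to 478 CPM and 363 to 487 CPM. Libraries of one group that differ only in replicate number are called biological replicates by the labels, but nothing ties them to separate electroporations. P-values therefore measure the spread between these libraries.

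All 5 genes were lower in cells with *Lhx3/4*, and each gene's 3 *Lhx3/4* libraries lay below its 3 control libraries. The falls were very unequal. The enzyme genes *Tyrp-1* and KH.C8.537 fell most and the regulator *Mitf* least, but the regulator *Msx* fell more than the enzyme gene *Tyr*. The sizes therefore did not divide cleanly into enzymes and regulators, and no difference between members passed a threshold in an exact permutation test. *Tyrp-1* was 86.4-fold lower and KH.C8.537 42.3-fold lower, while *Tyr* was 5.47-fold lower. Of the regulators, *Msx* was 13.7-fold lower and *Mitf* 2.85-fold lower. Calls needed a Benjamini-Hochberg adjusted p below 0.05, with all tested genes in the adjustment, and a log2 fold change whose size reached 0.58. By this rule 5 of 5 members were called down, against 2.92% of the 13641 genes tested (edgeR's quasi-likelihood test). The members were chosen with earlier results of these data known, so this count is not independent evidence of a fall. Of all tested genes, 10.7% had every *Lhx3/4* library below every control. The members had a median log2 fold change of -3.78, and all tested genes one of 0.01. The tissue is a mixture, so fewer pigment lineage cells and less RNA per cell cannot be told apart here.

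**Figure D1:**
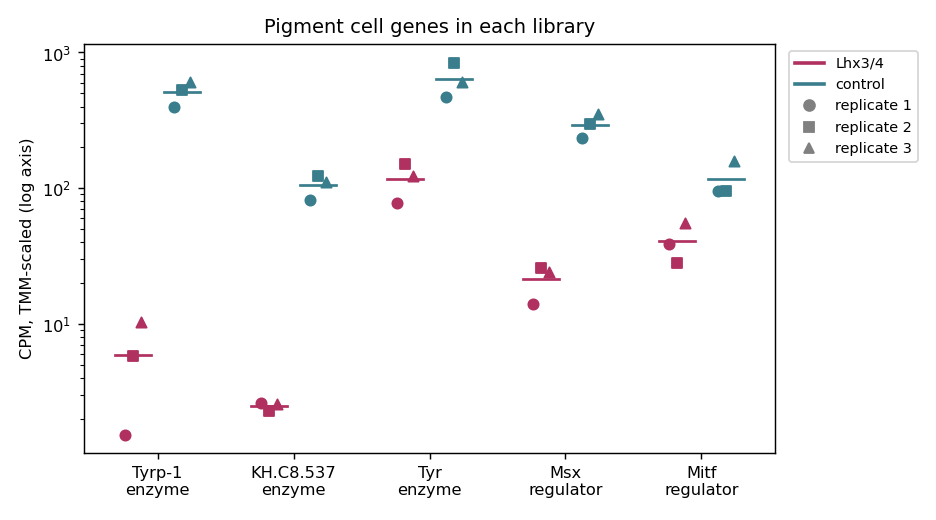
CPM of the 5 genes on a log axis, with *Lhx3/4* libraries left of control libraries for each gene, 1 symbol per library and a bar at the group mean. No gene has overlapping groups, and the distance between groups is widest for *Tyrp-1* (5.92 against 513 CPM) and narrowest for *Mitf* (40.9 against 117 CPM).

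*Tyr* encodes tyrosinase, the enzyme of the first step. It had 77.9, 151 and 122 CPM in *Lhx3/4* replicates 1, 2 and 3, against 472, 842 and 607 CPM in control replicates 1, 2 and 3. Replicate 1 was the lowest and replicate 2 the highest in both groups, and the highest *Lhx3/4* library was 3.12-fold below the lowest control. The means were 117 ± 36.9 CPM with *Lhx3/4* and 640 ± 188 CPM in controls (SD, n = 3 each). The log2 fold change was -2.45 (SE, the standard error, 0.31, edgeR adjusted p = 0.00449). The raw counts, 4334 to 10319 reads with *Lhx3/4* and 27508 to 50945 reads in controls, leave little counting error. The *Lhx3/4* libraries still held 18.3 ± 5.77% of the control mean (SD, n = 3), a larger share than of the other enzyme genes.

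*Tyrp-1* is named after the tyrosinase-related proteins that act after tyrosinase in vertebrate melanin synthesis. It had 1.528, 5.850 and 10.372 CPM in *Lhx3/4* replicates 1, 2 and 3, against 398, 531 and 609 CPM in control replicates 1, 2 and 3. The *Lhx3/4* libraries differed among themselves by 6.79-fold, where the controls differed by 1.53-fold. Even so, the highest *Lhx3/4* library was 38.4-fold below the lowest control. The log2 fold change was -6.43 (SE 0.70, edgeR adjusted p = 0.00269), and only 13 of the tested genes had a lower one. These low levels rest on 85, 399 and 755 reads in *Lhx3/4* replicates 1, 2 and 3. Without *Lhx3/4* replicate 3 the log2 fold change was -7.11 (edgeR adjusted p = 0.00454), so the size of this fall depends on that library by over 1.5 times. The *Lhx3/4* libraries held 1.15 ± 0.862% of the control mean (SD, n = 3).

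KH.C8.537, the further tyrosinase-related gene, was low and even. It had 2.61, 2.30 and 2.60 CPM in *Lhx3/4* replicates 1, 2 and 3, against 82.4, 123 and 112 CPM in control replicates 1, 2 and 3. The *Lhx3/4* libraries differed by 1.13-fold among themselves, and all of them lay at least 31.6-fold below the lowest control. The log2 fold change was -5.40 (SE 0.22, edgeR adjusted p = 1.4e-04), the smallest standard error of the 5 genes. The *Lhx3/4* libraries held 145, 157 and 189 reads of it, which is 2.36 ± 0.163% of the control mean (SD, n = 3).

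The proportions of the enzyme genes to one another therefore changed, which shows in reads of the same library without any scaling between libraries. Of the reads of the 3 enzyme genes, *Tyr* made up 93.4 ± 2.61% in *Lhx3/4* libraries and 50.5 ± 5.36% in controls (SD, n = 3 each). *Tyrp-1* made up 4.40 ± 2.98% with *Lhx3/4* and 41.1 ± 5.24% in controls. KH.C8.537 made up 2.18 ± 0.895% with *Lhx3/4* and 8.44 ± 0.205% in controls. For each gene the groups did not overlap. The 95% Wilson intervals of single libraries, which cover counting error only, were narrower than these gaps, at 94.3% to 95.6% for *Tyr* in *Lhx3/4* replicate 1 and 56.0% to 56.6% in control replicate 2. Gene lengths were not used, so these shares compare libraries and not the genes' levels with each other. The summed CPM of the 3 enzyme genes was 126 ± 39.6 with *Lhx3/4* and 1259 ± 279 in controls (SD, n = 3 each).

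**Figure D2:**
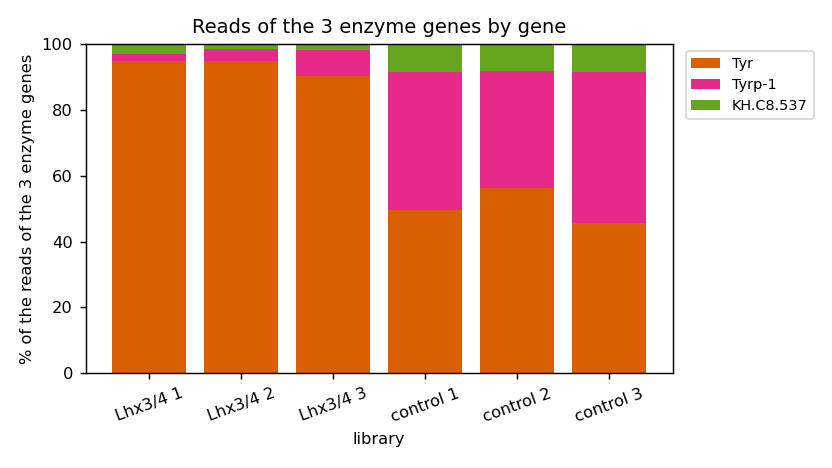
Share of the reads of the 3 enzyme genes that fell on each, per library, with the *Lhx3/4* libraries on the left. *Tyr* holds 90.40% to 94.96% in the *Lhx3/4* libraries and 45.7% to 56.3% in the controls.

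Of the regulators, *Msx* encodes a homeobox factor of the neural plate border. It had 14.1, 25.7 and 24.3 CPM in *Lhx3/4* replicates 1, 2 and 3, against 233, 297 and 351 CPM in control replicates 1, 2 and 3. The groups were far apart, with the highest *Lhx3/4* library 9.07-fold below the lowest control. The log2 fold change was -3.78 (SE 0.28, edgeR adjusted p = 6.7e-04). The *Lhx3/4* libraries held 7.28 ± 2.16% of the control mean (SD, n = 3), from 784 to 1771 reads with *Lhx3/4* and 13594 to 23482 reads in controls.

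*Mitf*, the bHLH regulator of melanin enzymes in vertebrates, fell least. It had 38.8, 28.3 and 55.7 CPM in *Lhx3/4* replicates 1, 2 and 3, against 96.1, 94.7 and 159 CPM in control replicates 1, 2 and 3. Replicate 3 was the highest of both groups, and the highest *Lhx3/4* library was 1.70-fold below the lowest control. The log2 fold change was -1.51 (SE 0.31, edgeR adjusted p = 0.0332). The level left was 35.0 ± 11.8% of the control mean (SD, n = 3). This call was lost when control replicate 1, 2 or 3 or *Lhx3/4* replicate 1 or 2 was left out (edgeR adjusted p = 0.0521 to 0.113), and it held without *Lhx3/4* replicate 3 (edgeR adjusted p = 0.0304). Over all tested genes, libraries of the same replicate number deviated together from their group means. By member, these deviations correlated at 0.90 for *Mitf*, 0.96 for *Tyr*, 1.00 for *Tyrp-1* and 0.88 for *Msx*, but at -0.71 for KH.C8.537. Each of these r rests on 3 replicate numbers centered on the group mean, where large values of either sign arise easily. Once the replicate number was fitted as a block, *Mitf* had a log2 fold change of -1.52 with a smaller standard error of 0.12 (edgeR adjusted p = 2.5e-04). The pairing behind the block was read from these same values and not from the labels. The smaller error is therefore not independent evidence for the call on *Mitf*.

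The block moved the count of all genes called, so that 6.94% of the tested genes were called down with it and 5.47% by DESeq2. All 5 members were called down in both. Their standard errors with the block were 0.10 for *Tyr*, 0.40 for *Tyrp-1*, 0.18 for KH.C8.537, 0.12 for *Mitf* and 0.13 for *Msx*, each below the value without it. The calls on *Tyr*, *Tyrp-1*, KH.C8.537 and *Msx* held whichever library was left out, with adjusted p of at most 0.0222 from edgeR.

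**Figure D3:**
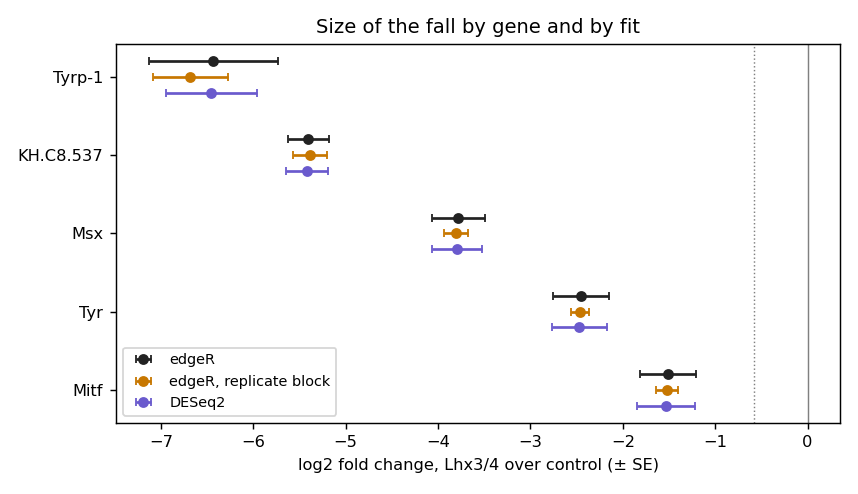
Log2 fold change of each gene, *Lhx3/4* over control, with its standard error, in edgeR, in edgeR with the replicate block and in DESeq2. The dotted line marks the threshold for a fall, 0.58 in size. The order of the genes is the same in the 3 fits, and the block shortens the error bars of each gene relative to edgeR without it.

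Within each replicate number the 5 genes kept one order. The level in the *Lhx3/4* library as a share of the control library of its number was 40.3%, 29.9% and 34.9% for *Mitf* in replicates 1, 2 and 3, and 16.5%, 18.0% and 20.1% for *Tyr*. It was 6.04%, 8.64% and 6.94% for *Msx*. It was 3.16%, 1.87% and 2.32% for KH.C8.537, and 0.384%, 1.10% and 1.70% for *Tyrp-1*. *Tyr* was the most even of the 5, with falls of 4.97- to 6.06-fold, and *Tyrp-1* the least even, with falls of 58.7- to 261-fold. This order, *Mitf*, *Tyr*, *Msx*, KH.C8.537 and *Tyrp-1* from the smallest fall to the largest, stood in 3 of 3 replicate numbers and in 12 of 12 alternative fits, which reuse these libraries.

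**Figure D4:**
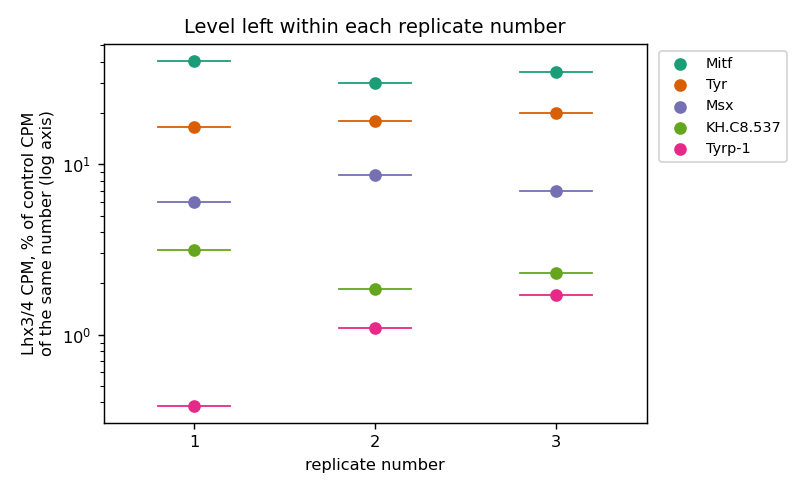
CPM of each *Lhx3/4* library as a percentage of the control library with the same replicate number, on a log axis, 1 point per gene and number. *Mitf* lies at 29.9% to 40.3% and *Tyrp-1* at 0.384% to 1.70%, with the other 3 genes between them in one order.

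Whether 2 genes fell to different degrees was asked of the log2 ratio of their CPM in each library, with 0.5 CPM added to each value, over all 10 pairs of members. In 9 of the 10 pairs the ratios of the *Lhx3/4* libraries did not overlap those of the controls (exact permutation test, two-sided, p = 0.1, the smallest p that 3 against 3 libraries allow, and 0.111 adjusted over the 10 pairs). This exact test cannot reach p = 0.05 with so few libraries, so none of the 9 differences passes a threshold. The 10 pairs reuse 5 genes and the same 6 libraries, so they are not independent of one another. The widest difference was between *Tyrp-1* and *Mitf*, whose log2 ratio was -2.94 ± 1.16 with *Lhx3/4* and 2.15 ± 0.29 in controls (SD, n = 3 each), a difference of -5.09, and of -4.43 without *Lhx3/4* replicate 1. Among the enzymes, the log2 ratio of *Tyrp-1* to *Tyr* was -4.45 ± 0.90 with *Lhx3/4* and -0.30 ± 0.34 in controls, a difference of -4.15. That of KH.C8.537 to *Tyr* was -5.24 ± 0.55 with *Lhx3/4* and -2.57 ± 0.17 in controls, a difference of -2.67.

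The regulators also parted from each other. The log2 ratio of *Msx* to *Mitf* was -0.91 ± 0.69 with *Lhx3/4* and 1.35 ± 0.26 in controls (SD, n = 3 each), a difference of -2.27. *Msx* fell more than the enzyme gene *Tyr*, with a log2 ratio of -2.42 ± 0.11 with *Lhx3/4* and -1.10 ± 0.36 in controls, a difference of -1.32. The neighbors *Tyr* and *Mitf* were the pair whose groups overlapped. Their log2 ratio was 1.51 ± 0.77 with *Lhx3/4* and 2.45 ± 0.63 in controls, a difference of -0.95 (exact permutation test, two-sided, p = 0.3). Between libraries of the same number this difference was -0.95 ± 0.30 (SD, 3 numbers), and an exact paired test could not go below p = 0.25. *Tyrp-1* and KH.C8.537, the most lowered genes, differed by -1.48, from 0.79 ± 1.26 with *Lhx3/4* and 2.27 ± 0.17 in controls. The groups of this pair lay close, at -0.62 to 1.81 with *Lhx3/4* and 2.10 to 2.44 in controls, and without *Lhx3/4* replicate 1 the difference was -0.77. Between libraries of the same number it was -1.48 ± 1.23 (SD, 3 numbers), so this pair differed by little more than its spread.

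Among all tested genes the members stood at ranks 14 (*Tyrp-1*), 27 (KH.C8.537), 83 (*Msx*), 310 (*Tyr*) and 797 (*Mitf*) from the lowest log2 fold change. Of 327 annotated transcription factors, 294 were tested, 10 were called up and 49 down, against 1.85% up and 2.92% down over all tested genes (edgeR). With the replicate block 30 of the factors were called up and 72 down, against 644 up and 947 (6.94%) down over all 13641 tested genes. The median log2 fold change of the 294 tested factors was -0.09, without the block. *Msx* had the ninth lowest log2 fold change of them and *Mitf* stood at rank 65. The factors called down had a median log2 fold change of -2.40, so the fall of *Msx* was larger and that of *Mitf* smaller than the median.

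**Figure D5:**
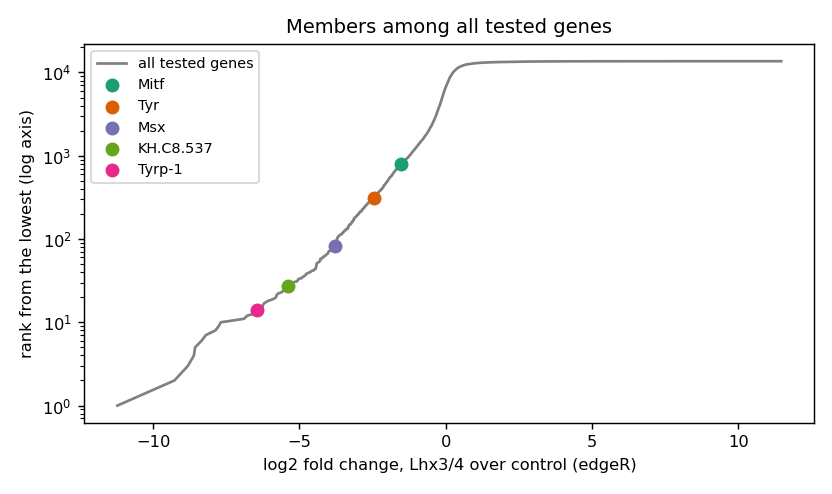
Rank of each tested gene from the lowest log2 fold change (log axis) against that log2 fold change, *Lhx3/4* over control. The 5 members, as points on the curve of all 13641 genes, run from rank 14 for *Tyrp-1* to rank 797 for *Mitf*.

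Of 5 other genes listed here for the lineage or its signals, 3 fell, 1 rose and 1 was not called (edgeR, with 2.92% of all tested genes called down and 1.85% called up). The study lists these 5 as changed, so their directions are not independent evidence. *Onecut*, a homeobox regulator of the ANP, had 17.0 to 24.5 CPM with *Lhx3/4* and 363 to 487 CPM in controls, a log2 fold change of -4.31 (SE 0.21, edgeR adjusted p = 2.0e-04). *Six3/6*, a homeobox gene of the anterior brain, had 32.66 to 57.34 CPM with *Lhx3/4* and 378 to 478 CPM in controls, a log2 fold change of -3.33 (SE 0.24, edgeR adjusted p = 6.4e-04). Both fell more than *Tyr* and *Mitf* by these values, and the difference was not tested.

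The homolog of *CHRD*, a secreted BMP antagonist, fell to 167 to 336 CPM with *Lhx3/4*, against 613 to 986 CPM in controls (log2 fold change -1.65, SE 0.29, edgeR adjusted p = 0.0192). This call was lost on leaving out control replicate 2 or *Lhx3/4* replicate 2 (edgeR adjusted p = 0.0649 and 0.0666). Its fall was close in size to that of *Mitf*. The model paired with *RGR*, of the opsin family of the retina, had 2363 to 3593 CPM with *Lhx3/4* and 1094 to 1723 CPM in controls, a log2 fold change of 1.00 (SE 0.22, edgeR adjusted p = 0.0473). This call was kept without control replicate 3 and lost without each of the other 5 libraries (edgeR adjusted p = 0.0674 to 0.141) and with DESeq2 size factors in edgeR (adjusted p = 0.0538). The model paired with *FGFR3*, a receptor for FGF in vertebrates, had 0.894 to 1.61 CPM with *Lhx3/4* and 0.463 to 0.747 CPM in controls, and did not pass the test (log2 fold change 1.22, edgeR adjusted p = 0.36). Its levels lay near the floor in both groups, at 61, 81 and 117 reads with *Lhx3/4* and 27, 29 and 50 reads in controls. Whether this model is the FGF receptor that acts in ANP cells was not tested.

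The markers of other cell types that were measured lay higher with *Lhx3/4*. The summed level of the 2 cardiopharyngeal genes *Foxf* and *Hand.r* was 160 to 189 CPM with *Lhx3/4* and 24.0 to 58.7 CPM in controls. Most of this sum was *Foxf*, at 148 to 182 CPM with *Lhx3/4* and 21.8 to 55.4 CPM in controls. The summed level of the 2 motor ganglion genes *Nkx6* and *Vsx* was 9.19 to 25.8 CPM with *Lhx3/4* and 1.54 to 3.24 CPM in controls, with *Vsx* at 0 reads in control replicate 3. *Foxf* and *Nkx6* rose, with log2 fold changes of 2.04 and 2.67 (edgeR adjusted p = 0.0115 and 0.0360), while *Hand.r* and *Vsx* did not pass the test (edgeR adjusted p = 0.173 and 0.0544). With the replicate block all 4 passed (edgeR adjusted p of at most 0.0228). Their part in the falls of the pigment genes was not tested.

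The *Lhx3/4* library with the highest level of *Lhx3/4*, replicate 1 at 644 CPM, had the least *Tyr*, *Tyrp-1* and *Msx* of the 3. The levels of *Lhx3/4* were 617 and 540 CPM in replicates 2 and 3, where *Tyr* had 151 and 122 CPM and *Tyrp-1* 5.850 and 10.372 CPM. KH.C8.537 and *Mitf* were not lowest in replicate 1. The 3 libraries allow no test of a relation, and control replicate 1 also had the least *Tyr*, *Tyrp-1*, KH.C8.537 and *Msx* of the controls.

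The members' profiles over the 6 libraries were alike. Pearson's r of log2 CPM was 0.96 to 0.99 among *Tyr*, *Tyrp-1*, KH.C8.537 and *Msx*, and 0.83 to 0.91 between each of these and *Mitf*. The 6 libraries form 2 groups, so genes that differ strongly between the groups have a high r, and the values are a description. Ordered by r with *Tyrp-1*, *Msx* stood at rank 9 of 13640 genes, *Tyr* at 80, KH.C8.537 at 93 and *Mitf* at 475. Ordered by r with *Tyr*, *Mitf* stood at rank 932, so many genes outside the members were closer than other members. The supplement pairs names with genes that the study lists as up or down in these libraries. The most similar gene with a paired name therefore need not be the nearest gene, and its direction is not independent evidence. For *Tyrp-1* it was the homolog of *SBSPON* (r = 1.00, rank 2 among all tested genes, log2 fold change -3.18). For KH.C8.537 it was *Onecut* (r = 0.99, rank 19). For *Mitf* it was the homolog of *LAMA2*, a laminin chain (r = 0.96, rank 62, log2 fold change -0.90, edgeR adjusted p = 0.077). Those most like *Tyr* and *Msx* were KH.C4.146 (r = 0.99, rank 7) and KH.C12.306 (r = 1.00, rank 1), with log2 fold changes of -2.98 and -3.14. The sources give these 2 models conflicting homologs, so none is named. Within groups, deviations from the group mean correlated at 0.88 between *Tyrp-1* and *Msx*, at 0.81 between *Msx* and *Tyr* and at -0.20 between *Tyr* and *Mitf*, over the 6 libraries.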

How the data were processed

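GFP+ cells were sorted and their polyA RNA was sequenced in 6 libraries, 3 per group, grouped by the titles. The labels name a New England Biolabs kit and the paper a Takara kit. The authors deposited raw counts per KH2012 gene model, made with HTSeq after alignment by HISAT2 to ci3. The sources used here give neither versions nor the strand setting, so a gene cannot be told from one that overlaps it on the other strand. The 5 HTSeq summary lines of each table (28.5% to 38.2% of counts) entered neither library sizes nor tests. The authors' table of their DESeq2 comparison (fold changes and p-values) was not used.

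Genes reaching 100 reads in the sum of the 6 libraries were tested with edgeR 4.0.16 (R 4.3.3) after TMM normalization (factors 0.97 to 1.06), with p-values adjusted over all tested genes. Standard errors of edgeR fits were back-calculated, as the size of the log2 fold change over the square root of the test's F statistic. Those of DESeq2 are its own. Ratios of members used log2(CPM + 0.5) and exact permutation tests (SciPy 1.17.1). Other fits used DESeq2 1.42.0, a replicate block, each library left out, and changed normalizations, filters and pseudocounts. The fits were tested on simulated data. The study's thresholds were used. Same-group libraries differed beyond sampling noise, with a chi-square of 131 to 371 per degree of freedom.

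Each library's deviations from its group mean were correlated over genes. The r was 0.65, 0.56 and 0.67 between libraries of the same number and -0.43 to -0.14 between groups at different numbers. Because group means were subtracted, positive r at the same number pushes the others negative, so those are not separate evidence. On the r at the same number, the block treats the numbers as pairs. The pairing comes from these values and not from the labels. The members, lists and tests were chosen with earlier results of these data known. Named genes are the members, the lists of lineage genes and markers, and for each member the most similar gene with a paired name. One listed lineage gene is not reported here, for a reason that does not rest on its values, so the counts of lineage genes cover those reported only. Of the members, 0 matched the RefSeq table, so no coordinates or sequences are given. Homologs are those the study's supplement pairs with the models.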

Additional observations from a re-analysis of the deposited data

How the results depend on the processing

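Over all genes, 252 were called up and 398 down. DESeq2 called 478 up and 746 down, and the replicate block called 644 up and 947 down. Leaving out each library in turn gave 147 to 305 up and 246 to 426 down, with the count up over 1.5 times lower without any library but control replicate 3, and the count down without control replicate 2 or *Lhx3/4* replicate 3. The other normalizations and filters stayed within 1.5 times. All 5 members were called down in all 6 alternatives that kept the 6 libraries, the replicate block included, and 4 or 5 of them with a library left out. The log2 fold change of *Mitf* was -1.80 to -1.22 with a library left out, and its call was lost in 5 of these 6 fits. Ratios between members kept their direction in 100 of 100 alternatives, but with a pseudocount of 5 CPM the difference between KH.C8.537 and *Msx* was -0.35, against -1.35, and its exact p 0.3. Without any one library the smallest two-sided exact p in any pair was 0.2. The levels of *Tyrp-1* and KH.C8.537 with *Lhx3/4* rest on 85 to 755 reads, so their counting error is larger than that of the other members. Among the *Lhx3/4* libraries *Tyrp-1* differed by 6.79-fold and KH.C8.537 by 1.13-fold. The spread between libraries therefore limits how exactly the fold of *Tyrp-1* is known more than that of KH.C8.537. The block changed no call on a member.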
